A study of Mus musculus with 12 samples.

Results

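Male Stau2GT mice went through 4 weeks of behavioral testing, and the RNA of their brains was set against that of naive mice of the same genotype. Stau2GT mice carry a gene trap in *Stau2*, the gene of the double-stranded RNA-binding protein Staufen2, listed as B6.129P2-Stau2Gt(RRG396)Byg on a C57Bl/6J background. The comparison takes 6 of the 12 arrays of the series, 3 from trained and 3 from naive Stau2GT mice, and the other arrays come from 3 trained and 3 naive wildtype (WT) C57Bl/6J mice. The sample labels give an age of 16 to 20 weeks for all groups, and testing (open field, object recognition, object location, Barnes maze) began at 4 months of age. All values are log2 RMA signals of transcript clusters, each a set of probes along a transcribed region, on an Affymetrix mouse gene array. Of 41345 clusters, 27966 had log2 values above 5 on 3 or more of the 12 arrays and were kept. A dim cluster could pass this filter through the trained or the naive arrays alone. Of the kept clusters, 1708 differed between trained and naive Stau2GT brains. Both groups carry the trap in every cell, and the study describes *Stau2* as lowered across the brain rather than lost.

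The array names carry 1 code for all 6 naive arrays and another code for all 6 trained arrays. Training and array batch therefore cannot be told apart in any value given here, and no fit could include the batch as a term. The words trained and naive name the groups and not a cause. The legend of the study describes the samples of a group as separate animals. The adjusted p-values of the main fit rest on a spread between animals pooled over all 4 groups, WT included. With only the 6 Stau2GT arrays, 261 clusters passed instead of 1708. The tissue was whole brain, in which fewer cells of a type and less RNA per cell cannot be told apart. *Stau2* itself stood at 8.02, 7.95 and 8.07 in trained and at 8.08, 8.06 and 8.07 in naive Stau2GT brains, a log2 fold change of -0.06 (adjusted p = 0.602). Its means were 8.24 in trained and 8.25 in naive WT brains, and the position of its probes relative to the trap is unknown here.

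Staufen2 travels in granules with messenger RNA along dendrites and takes part in the localization and stability of that RNA. Learning and motor activity are known to switch on immediate early genes within minutes to hours, such as *Fos* and *Arc*, and slower changes in synaptic and metabolic genes follow. Proteins of the cell surface and of synapses pass through the endoplasmic reticulum (ER), where chaperones fold them. The unfolded protein response sets the level of these chaperones through the transcription factors XBP1 and ATF6.

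In trained Stau2GT brains, 9 of 25 genes of the unfolded protein response and 17 of 70 small nucleolar RNAs were lower. So were 14 of 89 genes of ER entry and transport to the Golgi, a list drawn up after the values were seen. Of 247 microRNA genes, 22 were higher and 3 lower, and the clock genes *Nr1d1* and *Dbp* were higher. Of the 27966 clusters, 874 were higher and 834 lower, which is 6.11% (3.13% higher and 2.98% lower) at a Benjamini-Hochberg adjusted p under 0.05 in limma. With 1 cluster standing for each of 16425 genes, 319 genes were higher and 432 lower, which is 4.57% (1.94% higher and 2.63% lower). The changes were small. Among genes called, the median log2 fold change was 0.42 for those higher and -0.39 for those lower, 72 higher and 90 lower genes changed by at least 0.5, and 0 higher and 5 lower genes by at least 1. The median over all clusters was 0.0167.

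The direction of the calls went with the level of the cluster. In the dimmest quintile of the clusters, with mean levels of 3.82 to 5.50, 229 were higher and 76 lower, so that 75.1% of the calls were higher. In the brightest quintile, from 8.19 to 13.6, 101 were higher and 276 lower, so that 26.8% of the calls were higher. The median log2 fold change of all clusters in these quintiles was 0.12 and -0.05 in Stau2GT brains and 0.04 and -0.02 in WT brains. Of the genes called higher, 69.0% are protein coding by RefSeq, with a median level of 5.73. Of the genes called lower, 88.8% are protein coding, with a median level of 7.71, against 90.2% and 6.97 for all 16425 genes. The groups did not overlap in 1707 of the 1708 clusters called, and in 28.1% of all clusters. With each array centered on its median, the split moved to 478 clusters higher and 1651 lower, and with quantile normalization to 550 higher and 662 lower. Without naive Stau2GT mouse 1, 2 or 3 or trained Stau2GT mouse 2, the count of 1708 fell to 431, 527, 467 and 475.

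**Figure D1:**
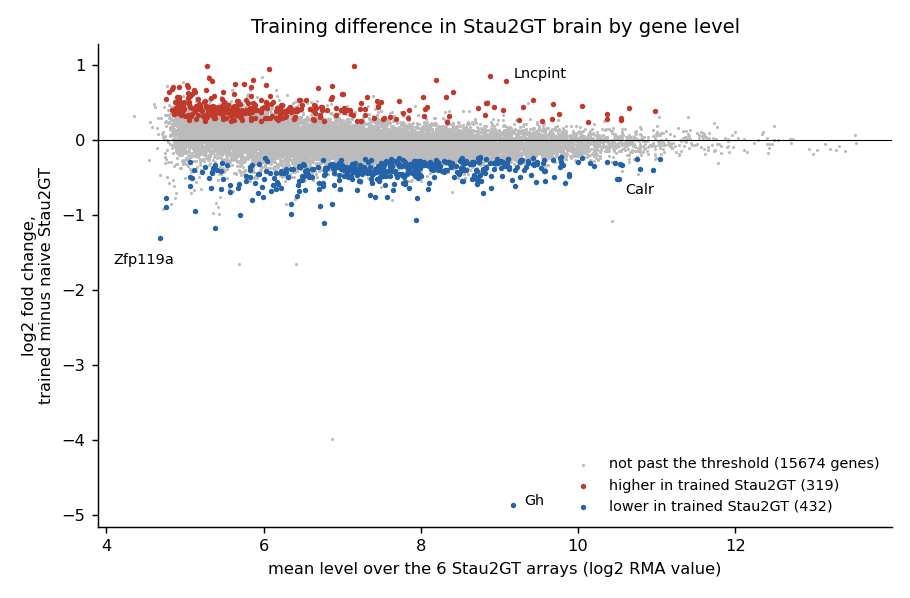
Each point is 1 of 16425 genes, with the mean log2 RMA value over the 6 Stau2GT arrays on the horizontal axis and the log2 fold change, trained minus naive Stau2GT, on the vertical axis. The 319 genes called higher lie mostly at low levels and the 432 called lower mostly at middle and high levels, and *Gh* stands far below all other called genes.

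Among the named genes with the largest increases were *Lncpint*, a long noncoding RNA induced by p53, *Neurod1*, a transcription factor of neuronal differentiation that granule cells express, *Ccn1*, a matrix protein gene of the immediate early kind, and *Dusp1*, a phosphatase gene that growth signals and glucocorticoids induce. *Lncpint* stood at 9.33, 9.58 and 9.50 in trained and at 8.79, 8.62 and 8.64 in naive Stau2GT brains. *Neurod1* stood at 6.35, 6.39 and 6.45 in trained against 5.39, 5.93 and 5.67 in naive brains. *Dusp1* stood at 8.76, 8.61 and 8.83 in trained against 8.01, 8.09 and 8.17 in naive brains. All 3 trained arrays lay above all 3 naive arrays for each of these genes. The log2 fold changes from limma were 0.79 for *Lncpint* (standard error 0.13, adjusted p = 0.0118), 0.73 for *Neurod1* (standard error 0.14, adjusted p = 0.0195), 0.70 for *Ccn1* (standard error 0.15, adjusted p = 0.0258) and 0.64 for *Dusp1* (standard error 0.13, adjusted p = 0.0207). Exact permutation tests of 3 arrays against 3 cannot go below 0.1 (two-sided), which is the value of every gene without overlap.

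The other genes among the 15 largest increases were mostly of low level. *Smok4a*, a kinase gene of sperm, stood at 6.72, 6.36 and 6.54 in trained and 5.49, 5.58 and 5.71 in naive brains, a difference of 0.95. *Kifc5b* (0.80), the heart myosin *Myh6* (0.74), the smooth muscle actin *Actg2* (0.72), the kallikrein *Klk1b5* (0.71), *Pramel11* (0.71), *Tex13b* (0.68), *Pldi* (0.65), *Septin12* (0.65) and *Ccdc182* (0.65) had mean levels under 6 in naive brains. *Tex13b* passed the filter only through the trained Stau2GT arrays, and *Myh6*, *Actg2* and *Pramel11* stood above log2 5 on no naive array. The increases of these genes are therefore not independent of the filter. *Rpl3*, the gene of a protein of the large ribosomal subunit, was higher by 0.85 (adjusted p = 0.0375), with trained arrays at 9.89, 9.20 and 8.81 and naive arrays at 8.35, 8.52 and 8.47. The other clusters of *Rpl3* stood at -0.14 and 0.17, and the gene has near-identical copies, so that value is uncertain.

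Growth hormone, *Gh*, fell most of all genes, followed by the zinc finger gene *Zfp119a* (-1.30). *Rbm15b*, whose protein guides the methylation of adenosine in messenger RNA, stood at 6.53, 6.06 and 6.25 in trained and at 7.29, 7.03 and 7.16 in naive Stau2GT brains. *Tfam*, the gene of the factor that packs and transcribes mitochondrial DNA, stood at 6.03, 6.23 and 6.31 in trained against 7.03, 6.59 and 6.95 in naive brains. *Mid1*, a gene of a microtubule-bound ubiquitin ligase, stood at 7.78, 7.41 and 7.51 in trained against 8.55, 8.40 and 8.06 in naive brains. The trained arrays lay below the naive ones in each case. Their log2 fold changes were -0.88 (adjusted p = 0.00776), -0.67 (adjusted p = 0.0126) and -0.77 (adjusted p = 0.0175) from limma.

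*Bet1* and *Srp54c* had the smallest adjusted p-values of the 15 largest decreases, a ranking that leaves out small RNAs. *Bet1*, a SNARE gene of transport between ER and Golgi, stood at 5.65, 5.73 and 5.90 in trained and 6.54, 6.34 and 6.41 in naive brains (-0.67, standard error 0.08, adjusted p = 0.00474). *Srp54c*, a gene of the signal recognition particle that brings nascent proteins to the ER, stood at 7.67, 7.79 and 7.84 in trained and 8.45, 8.32 and 8.49 in naive brains (-0.65, standard error 0.07, adjusted p = 0.00255). *Srp54c* has near-identical copies, so which of them the probes measured is uncertain. The largest decreases also held the zinc finger genes *Zfp935* (-0.84) and *Zfp932* (-0.65), *Rabggtb* (-0.94), a subunit of the enzyme that attaches lipid tails to Rab proteins, *Ogn* (-0.75), *Snrpd1* (-0.73), a core protein of spliceosomal particles, *Cavin4* (-0.68), *Anxa3* (-0.68) and *Lyrm2* (-0.66).

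At mean levels of 8 and above, *Rpl3*, *Lncpint* and *Dusp1* had the largest increases and *Nr1d1* came next, while the largest decreases after *Gh* were in *Srp54c*, *Cyb5r3* and *Capza1*. *Nr1d1*, a repressor of the circadian clock also called Rev-erb alpha, stood at 9.68, 9.63 and 9.75 in trained and 9.02, 9.23 and 9.21 in naive Stau2GT brains (0.53, standard error 0.08, adjusted p = 0.00940). *Dbp*, a clock-driven transcription factor, stood at 9.04, 8.73 and 9.05 in trained and 8.42, 8.56 and 8.54 in naive brains (0.43, adjusted p = 0.0248). *Fam107a*, a stress-induced gene that acts on actin, stood at 10.90, 10.89 and 10.79 in trained and 10.32, 10.56 and 10.39 in naive brains (0.44, adjusted p = 0.0213). A second, dimmer cluster of *Fam107a* moved the other way (-0.43, adjusted p = 0.0467). *DQ267102* (0.50), *Scgb1b3* (0.49), *Rnu11* (0.46), a small nuclear RNA of the minor spliceosome, and *Carmil3* (0.41), a gene that acts on actin capping, completed the higher genes at this level, beside *Lncpint*, *Dusp1* and *Rpl3*.

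*Cyb5r3*, the gene of a reductase of cytochrome b5, stood at 9.09, 8.71 and 8.88 in trained and 9.48, 9.54 and 9.47 in naive brains (-0.60, adjusted p = 0.00814). *Capza1*, an actin capping protein (-0.58), *Slc18b1*, a polyamine transporter of vesicles (-0.56), *Zfp960* (-0.55), *Vkorc1l1*, a vitamin K epoxide reductase of the ER (-0.54), *Chordc1*, a partner of HSP90 (-0.53), and the ER genes *Xbp1* and *Pdia6* were the other decreases at this level, beside *Gh* and *Srp54c*. Of 45 genes named so far for the size of their change, 16 passed whichever single array was left out. These were *Smok4a*, *Lncpint*, *Klk1b5*, *Nr1d1*, *DQ267102* and *Carmil3* among the higher ones and *Zfp119a*, *Rabggtb*, *Rbm15b*, *Bet1*, *Tfam*, *Srp54c*, *Cyb5r3*, *Slc18b1*, *Vkorc1l1* and *Pdia6* among the lower ones. Each of the other 29 missed the threshold without at least 1 of naive Stau2GT mouse 1, 2 or 3 or trained Stau2GT mouse 2, with adjusted p-values of up to 0.113 (*Actg2*). The count of 45 was 17, 23 and 23 without naive Stau2GT mouse 1, 2 or 3 and 24 without trained Stau2GT mouse 2.

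**Figure D2:**
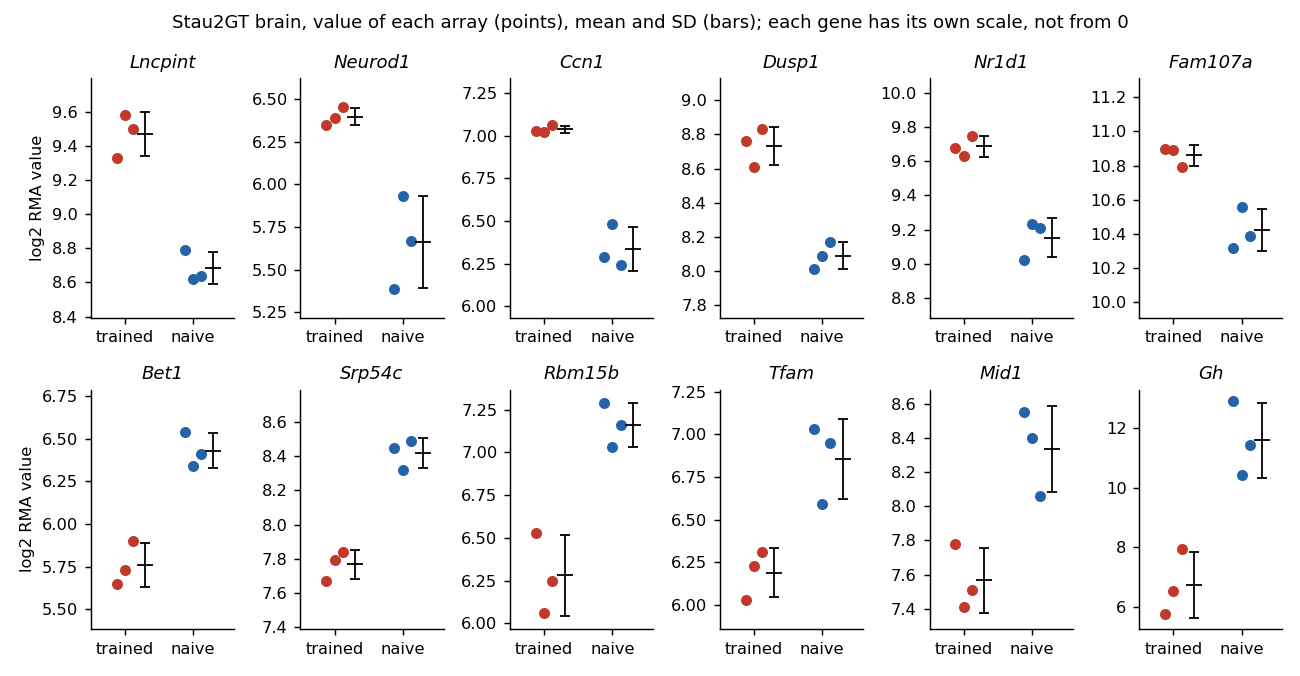
The log2 RMA value of each array (points) with the mean and SD of 3 arrays (bars) is shown for 6 genes higher and 6 genes lower in Stau2GT brain, trained on the left and naive on the right of each panel. Each panel has its own vertical scale, which does not start at 0, and in none of the 12 panels do the groups overlap.

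Genes of ER protein folding held many of the decreases in trained Stau2GT brains. Of 25 tested genes of the unfolded protein response, 9 were lower and 0 higher (36.0%, against 2.63% of all genes lower). The median log2 fold change of the list was -0.21, 19 members were below 0, and in 17 the trained arrays lay below all naive arrays, against 14.1% of all genes. *Hspa5*, the gene of BiP, the main Hsp70 chaperone of the ER, stood at 8.48, 8.47 and 8.48 in trained and at 9.09, 8.82 and 8.99 in naive brains. *Calr*, the gene of the calcium-binding chaperone calreticulin, stood at 10.34, 10.15 and 10.22 in trained and at 10.79, 10.72 and 10.75 in naive brains. *Xbp1*, the transcription factor of the response, stood at 8.62, 8.47 and 8.40 in trained and at 9.05, 9.0 and 9.06 in naive brains. The groups were well apart for all 3 genes.

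The log2 fold changes were -0.49 for *Hspa5* (adjusted p = 0.0375), -0.52 for *Calr* (adjusted p = 0.00865) and -0.54 for *Xbp1* (adjusted p = 0.0319). The disulfide isomerases *Pdia6* (-0.53, adjusted p = 0.0110) and *Pdia3* (-0.47, adjusted p = 0.0258), *Hsp90b1*, the Hsp90 of the ER (-0.39, adjusted p = 0.0167), the BiP partners *Dnajc3* (-0.49, adjusted p = 0.0417) and *Dnajb11* (-0.37, adjusted p = 0.0352) and the secreted factor *Manf* (-0.40, adjusted p = 0.0326) were the other 6. The members of the PERK branch, which responds by slowing translation, did not pass. *Ddit3* stood at -0.18 (adjusted p = 0.234) and *Trib3* at 0.30 (adjusted p = 0.249), the highest of the list. The linear signals of the 25 genes summed to 11328 to 11871 in trained and 14058 to 14922 in naive Stau2GT brains. *Calr* and *Pdia6* passed whichever single array was left out. The count of 9 was 2, 3 and 3 without naive Stau2GT mouse 1, 2 or 3, 3 without trained Stau2GT mouse 2 and 6 without trained Stau2GT mouse 1. It was 5 with quantile normalization or array weights, 6 without the filter, 3 with only the 6 Stau2GT arrays and 12 with median centering. The median of the list stayed below 0 under each scaling, at -0.189 with quantile normalization and -0.28 with median centering.

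**Figure D3:**
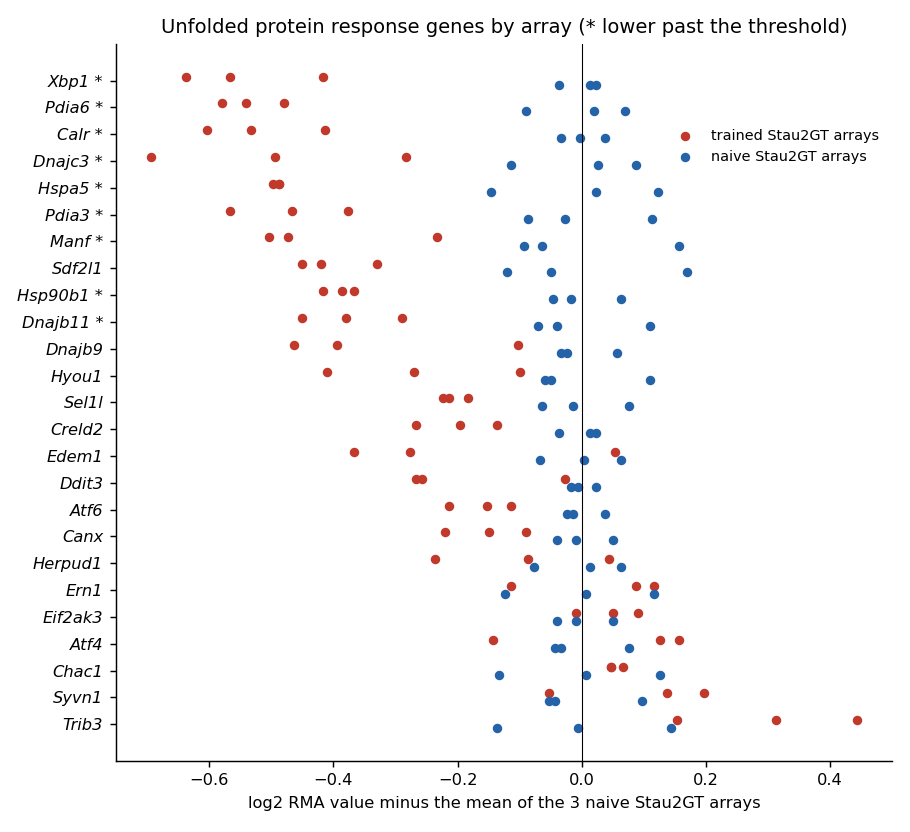
For each of the 25 unfolded protein response genes, the log2 RMA value of each Stau2GT array minus the mean of the 3 naive Stau2GT arrays is plotted, with trained arrays above naive arrays in each row and an asterisk at genes called lower. The trained arrays of the 9 called genes all lie to the left of the naive arrays, and *Trib3* at the bottom lies to the right.

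The promoters of these genes are shown because several carry the same published control element. The ER stress response element was searched as CCAAT and CCACG with 9 bases of any kind between them, on both strands, in RefSeq promoters (GRCm38.p6) from 250 bases before to 50 bases after the start of each gene, after the values had been seen. It was present in 37 of 27025 promoters (0.137%). Among tested genes of the unfolded protein response with a promoter in the table, 8 of 22 held it (36.4%), and among those called, 5 of 8. The element is a property of the genes listed for this response, and whether it bears on their decreases was not tested. ER stress response element II, searched as ATTGG and CCACG with 1 base of any kind between them, was present in 12 promoters (0.044%), including that of *Dnajb11*. The windows below give the called genes with capitals at the fixed bases of the element.
Hspa5, chr2:34772005-34772063, plus strand: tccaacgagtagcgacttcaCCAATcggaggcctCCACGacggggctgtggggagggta
Calr, chr8:84847055-84847113, minus strand: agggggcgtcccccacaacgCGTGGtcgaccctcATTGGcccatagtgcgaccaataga
Pdia6, chr12:17266471-17266529, plus strand: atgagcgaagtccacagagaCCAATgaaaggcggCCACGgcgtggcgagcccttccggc
Dnajc3, chr14:118937807-118937865, plus strand: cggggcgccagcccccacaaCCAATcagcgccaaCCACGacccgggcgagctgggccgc
Hsp90b1, chr10:86705513-86705676, minus strand: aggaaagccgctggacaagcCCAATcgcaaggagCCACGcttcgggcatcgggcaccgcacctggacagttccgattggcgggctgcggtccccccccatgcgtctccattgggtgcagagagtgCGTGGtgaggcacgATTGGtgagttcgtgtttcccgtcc
Dnajb11, chr16:22857832-22857882, plus strand: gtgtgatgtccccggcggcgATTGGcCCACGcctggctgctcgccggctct

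In *Calr* the element runs on the strand opposite to the gene, and *Hsp90b1* holds a copy in each orientation. The element was also present in 3 tested genes that did not pass and stood below 0 or near it, *Canx* (-0.15), *Creld2* (-0.20) and *Syvn1* (0.09), and element II in *Herpud1* (-0.09). Of 71 ER transport genes with a promoter, 0 held either element. The search also covered planned elements of other control pathways. Of the 8 called unfolded protein response genes with a promoter, 1 (*Calr*) held an E-box, against 8.09% of all promoters. None held a cAMP response element, heat shock element core, serum response element or D-box. An E-box was present in 5 of 20 tested and 0 of 2 called clock genes, and the heat shock core in 11 of 30 tested and 1 of 4 called heat shock chaperone genes. A match is a description of the letters in this window, not of binding.

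The next list holds genes of protein entry into the ER and of transport to the Golgi. This list, which was drawn up after the values were seen, held 89 tested genes, of which 14 were lower and 0 higher (15.7%, against 2.63% of all genes lower). Its median was -0.12, 75 members were below 0, and in 37 the trained arrays lay below all naive arrays, against 14.1% of all genes. *Scfd1*, a regulator of SNARE pairing between ER and Golgi, stood at 7.74, 7.72 and 7.83 in trained and 8.20, 8.22 and 8.24 in naive brains (-0.46, adjusted p = 0.0120). *Kdelr1*, the receptor that returns ER chaperones from the Golgi, stood at 6.95, 6.76 and 6.91 in trained and 7.22, 7.28 and 7.27 in naive brains (-0.38, adjusted p = 0.0175). *Spcs2*, a subunit of the signal peptidase, stood at 7.89, 8.03 and 7.94 in trained and 8.25, 8.30 and 8.35 in naive brains (-0.35, adjusted p = 0.0195). With *Bet1* and *Srp54c*, the genes that passed lie at steps from the ribosome to the Golgi, the steps by which the list was drawn up. *Ostc*, a subunit of the enzyme that attaches sugar chains (-0.44), and *Ssr3*, a subunit of the translocon-associated complex (-0.39), also passed. The count of 14 was 5, 3 and 3 without naive Stau2GT mouse 1, 2 or 3, 4 without trained Stau2GT mouse 2, and 8 without naive WT mouse 2, and it was 8 with quantile normalization and 7 with array weights or no filter.

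Heat shock chaperone genes were lower in part. Of 36 heat shock chaperone genes, 5 were lower and 0 higher (13.9%), and 31 were below 0 with a median of -0.16. The 5 were *Hspa5*, *Hsp90b1* and *Dnajc3*, which the unfolded protein response list holds too, *Chordc1*, and *Cryab*, a small heat shock protein gene of glia. *Cryab* stood at 9.50, 9.44 and 9.15 in trained and 9.78, 9.81 and 9.72 in naive brains (-0.41, adjusted p = 0.0345), while a dim second cluster stood at 0.03. The classical heat-induced genes did not pass, with *Hspa1b* at -0.46 (adjusted p = 0.224) and *Hsph1* at -0.26 (adjusted p = 0.0853). The count of 5 was 0, 1 and 1 without naive Stau2GT mouse 1, 2 or 3, 1 without trained Stau2GT mouse 2 and 2 without trained Stau2GT mouse 1.

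Some genes of protein breakdown were lower. Of 37 proteasome subunits, 5 were lower and 0 higher (13.5%), with a list median of -0.07. *Psmc1*, an ATPase of the regulatory particle, stood at 8.44, 8.43 and 8.52 in trained and 8.79, 8.72 and 8.82 in naive brains (-0.31, adjusted p = 0.0287). *Psmd14*, the subunit that removes ubiquitin (-0.27), *Psmb2* (-0.33), *Psmd6* (-0.41) and the assembly factor *Psmd10* (-0.39) were the others. Of 21 genes of the COP9 signalosome and of neddylation, which switch cullin ubiquitin ligases off and on, 5 were lower (23.8%) in a list drawn up after the values were seen. *Cops5*, its catalytic subunit, stood at 8.22, 8.0 and 8.10 in trained and 8.49, 8.52 and 8.49 in naive brains (-0.39, adjusted p = 0.0186). *Cops2* (-0.23), *Cops8* (-0.24) and both subunits of the NEDD8-activating enzyme, *Uba3* (-0.41) and *Nae1* (-0.28), passed too. Without naive Stau2GT mouse 1, 2 or 3 or trained Stau2GT mouse 2, 0, 1, 0 and 0 proteasome genes and 0, 0, 0 and 0 genes of the COP9 list were lower. Both counts also fell by more than 1.5 times without trained Stau2GT mouse 1 (1 and 2) or naive WT mouse 2 (1 and 3), and the proteasome count without naive WT mouse 3, trained WT mouse 1, 2 or 3, or trained Stau2GT mouse 3 (3, 2, 3, 2 and 3), as did the COP9 count without naive WT mouse 3 (3). With quantile normalization 1 proteasome and 1 COP9 gene were lower, and with array weights 0 and 2.

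Small nucleolar RNAs guide the methylation and pseudouridylation of ribosomal RNA and most are cut from the introns of host genes. Of 70 tested, 17 were lower and 1 higher (24.3% lower), with a median of -0.23 and 54 below 0. *Snora15* stood at 7.41, 7.29 and 7.51 in trained and 8.49, 8.41 and 8.50 in naive Stau2GT brains (-1.06, standard error 0.09, adjusted p = 0.000559). *Snord58b* stood at 5.98, 5.83 and 5.76 in trained and 6.83, 6.89 and 6.78 in naive brains (-0.98, adjusted p = 0.00507). *Snora34*, the brightest of these, stood at 10.29, 10.19 and 10.33 in trained and 10.85, 10.81 and 10.68 in naive brains (-0.51, adjusted p = 0.00776). Each had trained arrays well below the naive ones. *Snora75* (-0.75) and *Snord111* (-0.70) followed, and *Snord70* had the largest decrease (-1.16, adjusted p = 0.0415). *Snora23* moved the other way, at 10.53, 10.51 and 10.58 in trained and 10.19, 10.17 and 10.19 in naive brains (0.36, adjusted p = 0.0119). All of these except *Snord70* passed whichever single array was left out. The count of 17 lower was 5, 6 and 11 without naive Stau2GT mouse 1, 2 or 3 and 9 without trained Stau2GT mouse 2. Whether the signal came from mature forms or from precursors that hold them was not tested.

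More microRNA genes were higher than lower. Of 247 tested, 22 were higher (8.91%, against 1.94% of all genes) and 3 lower, with a median of 0.18 and 190 above 0. Their median level over the 6 Stau2GT arrays was 6.115, in the range where most calls were higher. Among all clusters with mean levels of 5.50 to 6.21, 72.1% of the calls were higher, with a median log2 fold change of 0.09. The part of level in the microRNA increases was not tested. The array probes cannot tell the arms of a hairpin apart, and whether the signal came from mature forms or from precursors was not tested. Mature sequences from RefSeq (GRCm38.p6), found for 23 of the 25 called genes, are shown because a microRNA recognizes its targets by its seed, bases 2 to 8, which stands in capitals. The first pair shares its seed, and both genes lie close together on chromosome 8. The next 3 sequences belong to *Mir23a* and *Mir23b*, whose 5p arms differ in their seeds. The following 3 lie in the *Dlk1*-*Dio3* domain, and the last pair belongs to genes that fell.
miR-181c-5p, chr8:84178924-84178945, minus strand: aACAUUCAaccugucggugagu
miR-181d-5p, chr8:84178759-84178781, minus strand: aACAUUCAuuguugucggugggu
miR-23a-3p, chr8:84208563-84208583, plus strand: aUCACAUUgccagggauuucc
miR-23a-5p, chr8:84208527-84208548, plus strand: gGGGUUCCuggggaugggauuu
miR-23b-5p, chr13:63300492-63300512, plus strand: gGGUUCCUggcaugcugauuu
miR-667-3p, chr12:109720061-109720083, plus strand: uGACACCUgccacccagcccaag
miR-673-5p, chr12:109572004-109572025, plus strand: cUCACAGCucugguccuuggag
miR-668-3p, chr12:109734774-109734797, plus strand: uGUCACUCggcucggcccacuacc
miR-9-5p, chr13:83738821-83738843, plus strand: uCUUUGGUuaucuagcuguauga
miR-421-5p, chrX:103572966-103572986, minus strand: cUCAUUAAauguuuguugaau

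*Mir23a* had the largest increase of the microRNA genes, at 5.69, 5.67 and 5.98 in trained and 4.50, 5.17 and 4.69 in naive Stau2GT brains (0.99, adjusted p = 0.0186). *Mir23b*, in a separate cluster of the same family, stood at 7.44, 7.40 and 7.13 in trained and 6.66, 6.69 and 6.77 in naive brains (0.62, adjusted p = 0.0104). *Mir181c*, of a family that is abundant in brain, stood at 7.36, 7.53 and 7.55 in trained and 6.93, 7.01 and 7.02 in naive brains (0.49, adjusted p = 0.0161). The neighbor *Mir181d* was higher by 0.52 (adjusted p = 0.0357). *Mir378b* (0.58, adjusted p = 0.00534) and *Mir1931* (0.58, adjusted p = 0.00622) had the smallest adjusted p-values. *Mir9-2*, 1 of the genes of miR-9, a microRNA of neural progenitors, stood at 6.05, 5.99 and 6.39 in trained and 6.57, 6.70 and 6.93 in naive brains (-0.59, adjusted p = 0.0345), *Mir421* was lower by 0.85 on the log2 scale (log2 fold change -0.85, adjusted p = 0.0125), and *Mir703* stood at -0.47 (adjusted p = 0.0418).

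The *Dlk1*-*Dio3* domain on chromosome 12 holds a large cluster of microRNAs that are made from the maternal chromosome and are abundant in brain. Of 35 tested there, 6 were higher (17.1%) and 0 lower, and 31 were above 0 with a median of 0.21. These were *Mir667*, *Mir673*, *Mir341*, *Mir654*, *Mir668* and *Mir758*. *Mir667* stood at 8.58, 8.6 and 8.65 in trained and 8.02, 8.0 and 8.09 in naive brains (0.57, adjusted p = 0.00935). The other 212 microRNA genes had 16 higher (7.55%) and 3 lower, with a median of 0.18. *Meg3*, the long noncoding RNA of the same domain, stood at 7.18, 7.16 and 6.79 in trained and 6.66, 6.45 and 6.62 in naive brains, which did not pass (0.47, adjusted p = 0.0532). *Mir378b*, *Mir1931*, *Mir23b*, *Mir667* and *Mir421* passed whichever single array was left out. The count of 22 higher microRNA genes was 6, 7 and 7 without naive Stau2GT mouse 1, 2 or 3 and 8 without trained Stau2GT mouse 2, and with median centering it was 13 higher and 8 lower.

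Zinc finger protein genes, most of them repressors that bind DNA through repeated fingers, passed in 1 direction only. Of 330 tested, 19 were lower (5.76%) and 0 higher, with a median of -0.075 and 216 below 0. *Zfp870* stood at 6.04, 6.13 and 6.37 in trained and 6.75, 6.71 and 6.70 in naive brains (-0.54, adjusted p = 0.0120). *Zfp322a* (-0.52), *Zfp433* (-0.44) and *Zfp182* (-0.62) also passed, beside *Zfp119a*. Members of this family resemble each other in sequence, so probes could be shared between them. The count of 19 was 8, 6 and 5 without naive Stau2GT mouse 1, 2 or 3, 5 without trained Stau2GT mouse 2 and 29 without trained Stau2GT mouse 3.

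Neuronal activity switches on immediate early genes. Of 26 immediate early transcription factors, 3 were higher (11.5%, against 1.94% of all genes) and 0 lower, with a median of 0.17 and 18 above 0. *Csrnp1* stood at 5.94, 5.86 and 5.97 in trained and 5.37, 5.50 and 5.68 in naive brains (0.41, adjusted p = 0.0275), *Maff* was higher by 0.46 (adjusted p = 0.0277) and *Klf2* by 0.44 (adjusted p = 0.0315). Other well-known members did not pass. *Fos* stood at 7.32, 7.04 and 6.93 in trained and 6.73, 6.27 and 6.67 in naive brains (0.54, adjusted p = 0.0899). *Nr4a1* stood at 0.53 (adjusted p = 0.142), *Junb* at 0.21 (adjusted p = 0.153), *Npas4*, a factor of inhibitory synapse formation, at 0.38 (adjusted p = 0.299) and *Egr1* at -0.09 (adjusted p = 0.711).

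Among 33 effectors and plasticity genes, *Ccn1* and *Dusp1* were higher (6.06%) and *Rgs4* was lower (3.03%). *Rgs4*, a brake on G protein signaling, had a log2 fold change of -0.30 (adjusted p = 0.0380). *Rgs4* stood at 10.12, 9.90 and 9.98 in trained and 10.27, 10.29 and 10.34 in naive brains, and missed the threshold without naive Stau2GT mouse 1, 2 or 3, trained Stau2GT mouse 2 or 3, naive WT mouse 1 or 2 or trained WT mouse 2, and with quantile normalization or the replicate block. *Arc*, whose protein acts in the removal of AMPA receptors from synapses, stood at 8.86, 8.97 and 8.6 in trained and 8.45, 8.22 and 8.59 in naive brains (0.39, adjusted p = 0.166). *Nr1d1* and *Dbp* were the 2 of 21 circadian clock genes that passed, both higher (9.52%, against 1.94% of all genes). *Arntl*, which drives both of them, stood at 8.61, 8.84 and 8.59 in trained and 8.91, 8.89 and 9.05 in naive brains (-0.27, adjusted p = 0.0663), and *Per1* at 0.21 (adjusted p = 0.445). No hour of dissection is stated. Without naive Stau2GT mouse 1, 2 or 3, 0, 1 and 2 immediate early factors were higher, and 0 without trained Stau2GT mouse 1 or 2. The count of higher effector genes was 0, 1 and 0 without naive Stau2GT mouse 1, 2 or 3 and 1 without trained Stau2GT mouse 2. The clock count was 1 without naive Stau2GT mouse 1, 2 or 3 or trained Stau2GT mouse 1.

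At the synapse, single subunits of inhibitory receptors were lower. Of 17 tested GABA-A and glycine receptor subunits, 3 were lower (17.6%), 16 were below 0, and the median was -0.17. *Gabra2*, a subunit of GABA-A receptors at the axon initial segment and on cell bodies, stood at 9.29, 8.98 and 9.22 in trained and 9.62, 9.41 and 9.54 in naive brains (-0.36, adjusted p = 0.0406). The glycine receptor subunit *Glra2* (-0.43, adjusted p = 0.0406) and the GABA-A subunit *Gabrg1* (-0.44, adjusted p = 0.0409) also passed. These calls lay close to the threshold, and 0 of the 3 passed without any single 1 of naive Stau2GT mouse 1, 2 or 3, trained Stau2GT mouse 2, naive WT mouse 1, 2 or 3, or trained WT mouse 1 or 3. With quantile normalization, without the filter or with only the 6 Stau2GT arrays, 0 of the 3 passed as well. Of 22 AMPA, kainate and NMDA receptor subunits, 0 passed in limma, with 2 above and 1 below 0 at an unadjusted p under 0.05. Of 30 postsynaptic scaffold and adhesion genes, 0 passed in limma, with 2 above and 2 below 0 at an unadjusted p under 0.05. Such a p was found in 7330 of all 27966 clusters.

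Among genes of vesicle fusion, *Cplx1*, the gene of complexin 1, which clamps vesicle release, stood at 10.44, 10.39 and 10.31 in trained and 10.70, 10.75 and 10.64 in naive brains (-0.32, adjusted p = 0.0267). *Stx12* (-0.39) and *Snap29* (-0.35), SNAREs of endosomes, were the others of 43 that passed (6.98% lower, against 2.63% of all genes). Of 55 Rab GTPases, which direct vesicles to their targets, 3 were lower (5.45%) and 1 higher (1.82%). *Rab10*, of traffic to the plasma membrane, stood at 9.32, 9.40 and 9.33 in trained and 9.75, 9.71 and 9.68 in naive brains (-0.36, adjusted p = 0.00839), *Rab8b* stood at -0.39 (adjusted p = 0.0264) and *Rab43* at 0.45 (adjusted p = 0.0208). *Rab10* alone of the genes of vesicle fusion and Rab genes named here passed whichever single array was left out. Without naive Stau2GT mouse 1, 2 or 3 or trained Stau2GT mouse 2, 0 of the 43 vesicle fusion genes were lower in each case, and 1, 2, 1 and 1 of the Rab genes were. Without trained Stau2GT mouse 1 or 3, 2 and 5 vesicle fusion genes and 7 and 6 Rab genes were lower.

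Of 82 potassium channel genes, 3 were lower (3.66%) and 1 higher (1.22%), shares near the 2.63% and 1.94% of all genes. *Kcna4*, of the fast transient current in axons, stood at 7.58, 7.43 and 7.58 in trained and 8.05, 8.29 and 8.17 in naive brains (-0.64, adjusted p = 0.0157), although its second cluster stood at -0.01. *Kcnj16*, an inward rectifier of glia (-0.47, adjusted p = 0.0144), *Kcnab3* (adjusted p = 0.0448) and *Kcnt1* (0.27, adjusted p = 0.0371) also passed. The calcium channel gene *Cacna1a* of Purkinje cells and many other neurons was higher by 0.26 (adjusted p = 0.0399). Protocadherins, adhesion proteins of neurons, had 27 of 33 members below 0, with a median of -0.11 against 0 for all genes. *Pcdhb2* (-0.55, adjusted p = 0.0129) and *Pcdhb17* (-0.41, adjusted p = 0.0146) passed (6.06% of the list, against 2.63% of all genes lower). *Htr1a*, the gene of an inhibitory serotonin receptor, stood at 5.82, 5.56 and 5.88 in trained and 6.17, 6.44 and 6.18 in naive brains (-0.51, adjusted p = 0.0275). Of these channel, adhesion and receptor genes, *Kcnj16* and *Pcdhb2* passed whichever single array was left out, and each of the others missed the threshold without at least 1 of naive Stau2GT mouse 1 or 2. Without trained Stau2GT mouse 3, 5 protocadherins were lower.

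Genes of mitochondria and translation showed single decreases. Of 71 mitochondrial ribosomal proteins 3 were lower, of 32 complex I subunits 3, and of 44 subunits of the other complexes 2 (4.23%, 9.38% and 4.55%), with medians of -0.06, -0.05 and -0.04. *Ndufv2* (-0.30), *Ndufb3* (-0.37) and *Ndufs1* (-0.25), subunits of complex I, and *Mrpl15* (-0.33) of the mitochondrial ribosome were among them. Of 49 translation factors, 4 were lower (8.16%), namely *Eif3e* (-0.36), *Eif3m* (-0.34), *Eif5* (-0.35) and *Eif2b1* (-0.32), all of initiation. *Eef2k*, whose kinase slows elongation, was higher (0.26, adjusted p = 0.0275). Without naive Stau2GT mouse 1, 2 or 3 or trained Stau2GT mouse 2, 0, 0, 0 and 1 complex I genes and 1, 0, 0 and 0 translation factors were lower, and 0 mitochondrial ribosomal proteins in each case. Without trained Stau2GT mouse 1 or 3, 6 and 5 mitochondrial ribosomal proteins, 3 and 3 complex I genes and 1 and 5 translation factors were lower. Of 58 cytosolic ribosomal proteins, 2 were higher (3.45%) and 1 lower (1.72%), with a median of 0.0017. Of 150 genes of RNA binding and splicing, 5 were lower, which is 3.33% against 2.63% of all genes. That count was 1 without naive Stau2GT mouse 1, 2 or 3 or trained Stau2GT mouse 2, 3 without trained WT mouse 1, 13 without trained Stau2GT mouse 3, 17 with median centering and 2 with quantile normalization.

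Staufen2 acts on bound messenger RNAs and with partner proteins of RNA granules. Of 25 tested Staufen and granule genes, 0 passed in limma, and 21 stood below 0 with a median of -0.08. At an unadjusted p under 0.05 were 5 of them, against 7330 of all 27966 clusters. Of 10 messenger RNAs that Staufen2 is known to bind in neurons, *Cplx1* and *Rgs4* were lower (20%, against 2.63% of all genes). *Actb*, beta-actin, was higher (10%, against 1.94%), at 10.25, 10.23 and 10.28 in trained and 10.08, 9.93 and 10.02 in naive brains (0.24, adjusted p = 0.0387). *Actb* missed the threshold without any single array other than trained WT mouse 2, and *Cplx1* and *Rgs4* without naive Stau2GT mouse 1, 2 or 3 or trained Stau2GT mouse 2. Genes of the parallel fiber synapse and of cerebellar neurons that the study examined did not pass. For *Cbln1* the study compared Stau2GT with WT mice, so its result is not tested by the comparison made here. *Cbln1*, the gene of cerebellin 1, stood at 8.67, 8.78 and 8.68 in trained and 8.46, 8.83 and 8.70 in naive brains (0.05, adjusted p = 0.861), and *Cbln3* at 0.17 (adjusted p = 0.533). *Slc17a7* (-0.08), *Calb1* (-0.07), *Rbfox3* (0.05), *Nrxn2* (0.02) and *Nrxn3* (0.08) did not pass either. With 3 arrays a group, differences of this size were not detectable, and the smallest log2 fold change called in all was 0.2.

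In several families of low level, the members that passed were mostly higher. Of 129 olfactory receptor genes, 7 were higher (5.43%) and 0 lower, and 112 were above 0 with a median of 0.21. *Olfr875* stood at 6.26, 6.09 and 6.36 in trained and 5.58, 5.51 and 6.02 in naive brains (0.53, adjusted p = 0.0362), and *Olfr205* (0.68) and *Olfr332* (0.35) stood below 6 in all 6 arrays. Of 46 genes of striated muscle, in a list drawn up after the values were seen, 10 were higher (21.7%) and 3 lower. The higher ones included *Myh6* and *Myh2* (0.49) of the thick filament, *Tcap* (0.53), *Ckm*, muscle creatine kinase (0.39), *Myog*, a master factor of muscle differentiation (0.47), *Stac3* (0.53), *Trim63* (0.42), *Klhl40* (0.29), *Mustn1* (0.34) and *Chrne* (0.42). *Ckm* stood at 5.74, 5.86 and 5.52 in trained and 5.30, 5.28 and 5.38 in naive brains, close to the minimum of the filter. *Nexn* (-0.37), *Cavin4* and the muscle ubiquitin ligase *Fbxo32* (-0.30) were lower. The fibrillar and network collagens *Col16a1* (0.30), *Col7a1* (0.30) and *Col2a1* (0.32) were higher, of 43 collagens tested (6.98%).

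These families had levels in the range where most calls were higher, and their counts moved with the scaling. Without the filter, 1 olfactory receptor and 6 muscle genes were higher. With quantile normalization 0 olfactory receptors were higher and 1 lower, 5 muscle genes were higher and 0 collagens passed, and 0 collagens passed with median centering, an intensity trend or no filter either. The olfactory count was 0, 0 and 2 without naive Stau2GT mouse 1, 2 or 3, 4 and 1 without trained Stau2GT mouse 1 or 2, 2 and 1 without naive WT mouse 2 or 3, 2 without trained WT mouse 1 and 4 without trained WT mouse 3. The count of higher muscle genes was 0, 2 and 3 without naive Stau2GT mouse 1, 2 or 3, 6, 1 and 6 without trained Stau2GT mouse 1, 2 or 3, and 6 without naive WT mouse 2. The count of 3 collagens was 0 without naive Stau2GT mouse 1 or 2 or trained Stau2GT mouse 2, and 1 without naive Stau2GT mouse 3, trained WT mouse 3 or any single naive WT mouse.

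The growth hormone gene *Gh* was lower in trained Stau2GT brains, and was the only 1 of 9 anterior pituitary genes that passed. *Gh* stood at 5.75, 6.53 and 7.94 in trained and 12.93, 10.44 and 11.43 in naive brains (-4.86, standard error 0.95, adjusted p = 0.0210). Prolactin, *Prl*, stood at 4.24, 5.08 and 5.30 in trained and 11.01, 7.87 and 7.70 in naive brains, which did not pass (-3.99, adjusted p = 0.0685). *Pomc* stood at -1.65 (adjusted p = 0.0548) and *Cga*, the shared subunit of glycoprotein hormones, at -1.65 (adjusted p = 0.152). All 9 tested genes of the anterior pituitary were below 0, and 5 were lower without overlap, with a median of -0.96. Their linear signals summed to 1536 to 1618 in trained and 3152 to 11853 in naive Stau2GT brains, with a wide spread among naive brains. How much pituitary tissue stayed with each brain was not tested. *Gh* did not pass without naive Stau2GT mouse 1 or 3 or trained Stau2GT mouse 2, with an adjusted p of up to 0.0706.

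Of 23 tested markers of meningeal fibroblasts, 3 were lower (13%), 21 were below 0 and 13 lay below all naive arrays, with a median of -0.16. The matrix genes *Ogn*, *Bgn* (-0.44, adjusted p = 0.0277) and *Dcn* passed. *Dcn* stood at 7.76, 7.77 and 7.85 in trained and 8.05, 8.20 and 8.25 in naive brains (-0.37, adjusted p = 0.0201). A second cluster of *Bgn* stood at 0.36 (adjusted p = 0.0693). No meningeal gene passed with only the 6 Stau2GT arrays, or without naive Stau2GT mouse 2 or 3 or trained Stau2GT mouse 2, and the part of meninges in the other decreases was not tested.

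Markers of the main cell types of the brain did not pass. Of the pan-neuronal markers (15 tested), astrocytes (19), oligodendrocytes (22), oligodendrocyte precursors (10), microglia (20), endothelium and pericytes (27), choroid plexus (14) and Purkinje cells (22), 0 of 149 markers passed in limma, with list medians from -0.14 (oligodendrocyte precursors) to 0.06 (Purkinje cells). At an unadjusted p under 0.05, 3 were higher and 25 lower. Over all 27966 clusters, 7330 had an unadjusted p under 0.05 in either direction. Of 28 cerebellar granule cell genes, *Neurod1* was higher (3.57%, against 1.94% of all genes) and 21 were above 0. The defining markers of the labelled tissue were present at high levels in all 6 arrays, with *Rbfox3*, the gene of the neuronal marker NeuN, between 9.94 and 10.11.

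**Figure D4:**
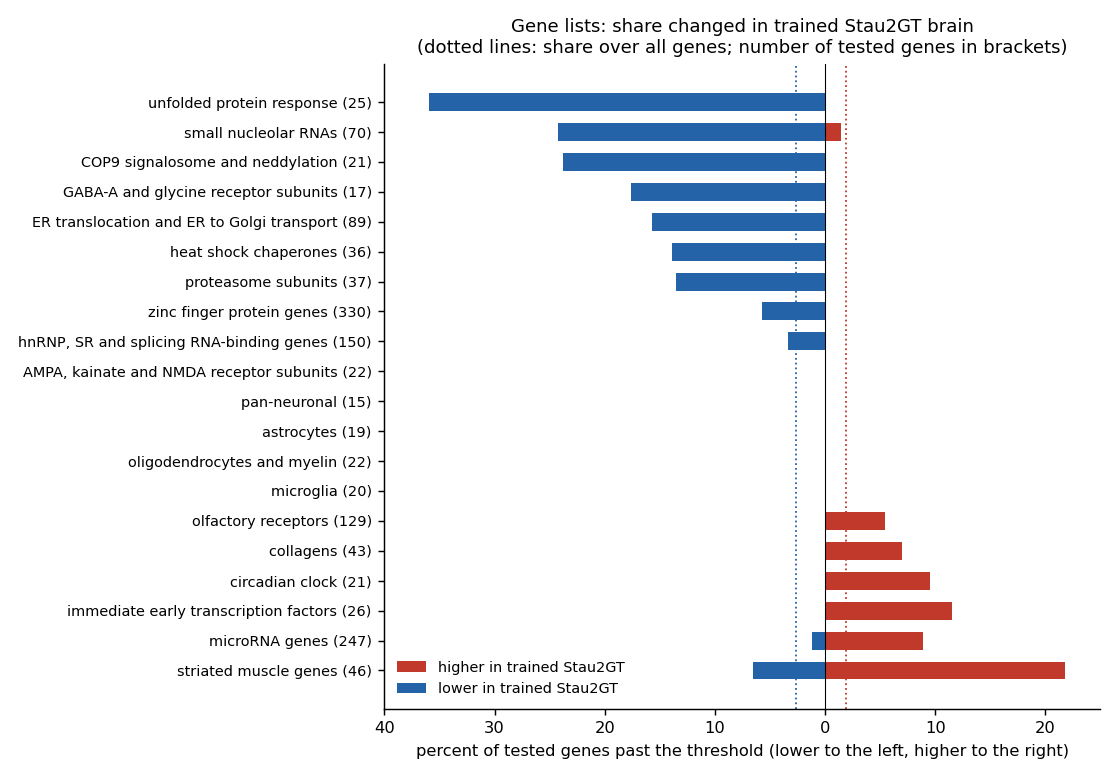
For 20 gene lists, bars give the percent of tested genes called lower (to the left) and higher (to the right) in trained against naive Stau2GT brain, with the number of tested genes in brackets and dotted lines at the shares over all genes, 2.63% lower and 1.94% higher. ER, small nucleolar RNA and protein breakdown lists lie to the left, microRNA, muscle and olfactory receptor lists to the right, and the cell type lists have no bar.

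The same comparison in WT mice spans the same array codes. There, 235 clusters were higher (0.84%) and 156 lower (0.558%), in all 1.4% of 27966, and 85 of 16425 genes passed (0.518%). Of these clusters 223 were called in both genotypes in the same direction, which is 13.1% of the Stau2GT calls and 57.0% of the WT calls, and 0 in opposite directions. Of the 1708 Stau2GT calls, 1548 had the same sign in WT brains (90.6%), against 68.3% of all clusters. The clusters called higher had medians of 0.46 in Stau2GT and 0.20 in WT brains, and those called lower had medians of -0.47 in Stau2GT and -0.25 in WT brains. These clusters were chosen by their calls in Stau2GT brains, which alone favors larger values there. The medians therefore do not compare the size of the difference between genotypes. The WT count of 391 was moved by single arrays too, between 105 and 468.

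Among genes called in both genotypes, *Bet1* stood at -0.67 in Stau2GT and -0.74 in WT brains (adjusted p = 0.00266 in WT). *Srp54c* stood at -0.65 in Stau2GT and -0.55 in WT, *Lncpint* at 0.79 in Stau2GT and 0.66 in WT, *Nr1d1* at 0.53 in Stau2GT and 0.42 in WT, and *Gh* at -4.86 in Stau2GT and -4.88 in WT. The unfolded protein response list had medians of -0.21 in Stau2GT and -0.26 in WT brains, and 1 of its genes was higher and 1 lower in WT. Small nucleolar RNAs stood at -0.23 in Stau2GT and -0.09 in WT, and 15 of the 70 had an unadjusted interaction p under 0.05 in limma. Immediate early factors had medians of 0.17 in Stau2GT and 0.28 in WT, with 4 called higher in WT and 7 of 26 at an unadjusted interaction p under 0.05. Over all 27966 clusters, 2152 had an unadjusted interaction p under 0.05. *Fos* stood at 0.54 in Stau2GT and 1.16 in WT (adjusted p = 0.0137 in WT).

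Whether training differences themselves differed between genotypes was tested by the interaction, the difference in Stau2GT minus that in WT. In all, 6 clusters passed (0.0215%), all with a lower value in Stau2GT, and 2152 had an unadjusted p under 0.05 in limma. Unnamed cluster 17270096 stood at 7.27, 7.41 and 7.03 in trained and 9.38, 9.56 and 9.39 in naive Stau2GT brains (-2.21, adjusted p = 0.00039), against 9.52, 8.97 and 9.40 in trained and 9.19, 9.60 and 9.72 in naive WT brains. It was thus low in trained Stau2GT brains only, and its interaction was -2.0 (adjusted p = 0.0210). In the other 5 the WT arrays moved and the Stau2GT difference did not pass. *Ide*, the gene of insulin-degrading enzyme, was the only one with 1 symbol, with a difference of -0.09 in Stau2GT brains (adjusted p = 0.427).

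The genes next in order by unadjusted p did not pass the interaction. *Tfam* stood at -0.67 in Stau2GT and 0.06 in WT brains (interaction -0.73), *Cyb5r3* at -0.60 in Stau2GT and -0.02 in WT (interaction -0.58), *Fpgt* at -0.38 in Stau2GT and 0.17 in WT (interaction -0.55) and *Ppp3r2* at -0.29 in Stau2GT and 0.28 in WT (interaction -0.56). *Prph2* (0.57), *Dupd1* (0.74), *Sh2b2* (0.45) and *Mrpl27* (0.66) had interactions above 0. *Dupd1* passed the filter only through the trained Stau2GT arrays. *Gabra2* had an interaction of 0.83 (unadjusted p = 4.25e-05, adjusted p = 0.132), with differences of -0.36 in Stau2GT and -1.19 in WT brains. Naive WT brains stood apart in *Gabra2*, at 10.44, 10.45 and 10.37. Trained WT brains stood at 9.16, 9.30 and 9.23, and Stau2GT brains between 8.98 and 9.62. None of the training differences that passed in Stau2GT brains, apart from that of cluster 17270096, was therefore shown to differ from that of WT mice.

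**Figure D5:**
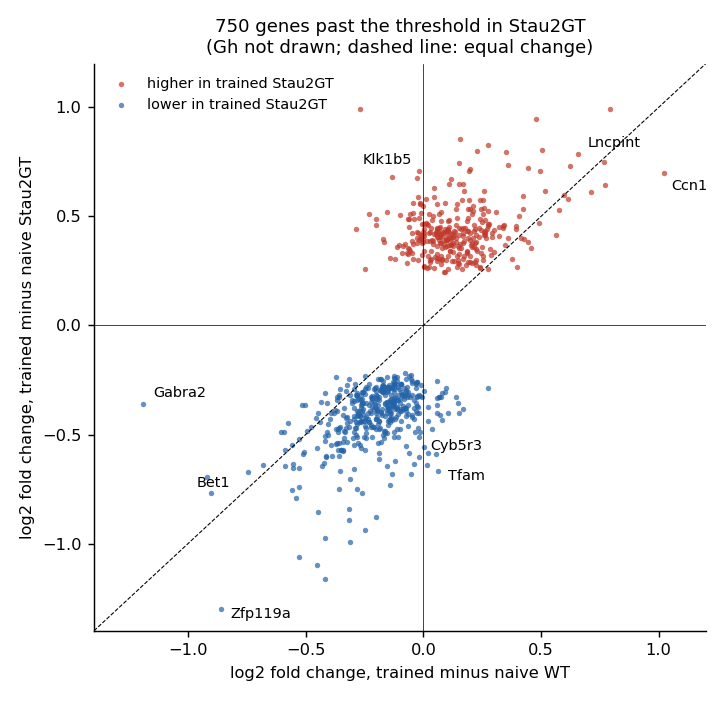
Each point is 1 of 750 genes called in Stau2GT brain, with the log2 fold change trained minus naive in WT brain on the horizontal axis and in Stau2GT brain on the vertical axis; *Gh* is not drawn and the dashed line marks equal change. Most points lie on the same side of 0 in both genotypes and farther from 0 in Stau2GT, while *Gabra2* lies farther from 0 in WT. The genes were chosen by their call in Stau2GT, which alone favors points farther from 0 there.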

How the data were processed

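Total RNA of brain was extracted with TRIzol, freed of genomic DNA with the Mini RNeasy kit, and hybridized to Affymetrix Mouse Gene 2.0 ST arrays. How much of the small RNA these steps kept was not tested. RMA, run by the authors with the Bioconductor package oligo, gave the deposited log2 values, 1 for each transcript cluster on each array. No source used here states the oligo version, or says if RMA was run jointly on naive and trained arrays. The 12 value columns were all used, and groups were taken from the sample titles. The number of arrays limits the precision.

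The filter (log2 value over 5 on 3 or more arrays) left 27966 clusters, of which 17331 had 1 symbol in the platform annotation, 1278 several and 9357 are unnamed here. A gene was represented by its single-symbol cluster of highest mean (16425 genes, 711 with several clusters). limma 3.58.1 in R 4.3.3 fitted 4 group means to the 12 arrays (8 residual and 2.78 prior degrees of freedom), with Benjamini-Hochberg adjustment over all clusters. Array medians over all deposited clusters ran from 5.68 to 5.79. They were 5.73, 5.79 and 5.75 in trained and 5.68, 5.69 and 5.68 in naive Stau2GT, so these 2 groups did not overlap. Over the kept clusters the medians were 6.66, 6.64 and 6.65 in trained and 6.64, 6.63 and 6.62 in naive Stau2GT. Correlations between arrays ran from 0.978 to 0.980 within trained Stau2GT, and were 0.987 to 0.988 within naive Stau2GT.

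The genes named are the 15 highest and 15 lowest among those past the threshold without overlap, the 10 highest and 10 lowest at a mean level of at least 8, up to 5 members per direction and the best known members of each list, the first 5 per direction by the interaction, and genes that the study examined. Predicted genes, microRNAs, small nucleolar RNAs and receptors of the olfactory organs were left out of the ranking. The members, the 61 gene lists and the rules were chosen with earlier results of these data known, and 3 lists were added after the values were seen. In all, 2553 genes stood in a list. The fit was tested on simulated data. Alternatives were no filter, a filter at 6, quantile normalization, median centering, array weights, a trend with robust moderation, a block for the replicate number, only the 6 Stau2GT arrays, the methods' t-test, the mean over clusters of a gene, identical clusters counted once, a minimum change of 0.5 and leaving out each array. Some items are not reported here.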

Additional observations from a re-analysis of the deposited data

Results flagged for a closer look

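Results are given here because the training difference in Stau2GT brains and that in WT brains differed by the test of the interaction (limma, adjusted p under 0.05). The difference of unnamed cluster 17270096 was lower in Stau2GT than in WT brains by 2.0 on the log2 scale (interaction -2.0, adjusted p = 0.0210), and the 3 trained Stau2GT arrays stood apart from the other 9. In the 3 clusters that share the symbols Tmem254a, Tmem254b and Tmem254c the interaction was -1.90, -1.82 and -1.59 (adjusted p = 0.00211 each), and naive WT brains stood apart, with means from 6.96 to 7.02 against 8.06 to 8.48 in the other groups. Naive WT brains stood apart as well in unnamed cluster 17467250 (interaction -2.02, adjusted p = 0.000135), with 6.72, 7.09 and 6.93. In *Ide* (interaction -0.83, adjusted p = 0.0147) the trained WT arrays were the high ones, at 9.89, 9.87 and 9.77. Groups of 3 arrays are too small for a test of outlying arrays.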

How the results depend on the processing

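The count of 1708 clusters changed in Stau2GT brains was 261 with only the 6 Stau2GT arrays, 961 with array weights, 704 at a minimum change of 0.5 and 0 with the methods' t-test after Benjamini-Hochberg adjustment (5163 at an unadjusted p under 0.05). It ran from 431 to 2150 on leaving out 1 array. The 194 calls in lists were 115 without a filter, 128 with quantile normalization, 109 with array weights, 20 with only the 6 arrays, 58 at a minimum change of 0.5, 0 with the t-test, and 43 to 235 on leaving out 1 array, with 43, 47 and 51 without naive Stau2GT mouse 1, 2 or 3 and 48 without trained Stau2GT mouse 2. The 45 genes named for their size were 14 with only the 6 arrays, 0 with the t-test and 17 to 43 on leaving out 1 array. Of the 751 genes called, 49 were still called with only the 6 Stau2GT arrays. The fit over 12 arrays assumes that all 4 groups vary alike. Correlations within groups were lowest in trained Stau2GT (0.9784 to 0.9795), followed by trained WT (0.9816 to 0.9844). They were 0.9873 to 0.9875 in naive Stau2GT and 0.987 to 0.9873 in naive WT. The main fit does not allow for a larger spread in trained Stau2GT arrays, so its adjusted p-values can be too small.

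The WT count of 391 was 661 with an intensity trend, 730 with array weights, 125 with only the 6 WT arrays, 12 with the t-test and 105 to 468 on leaving out 1 array. It was 237, 165 and 144 without naive WT mouse 1, 2 or 3, 137, 189 and 105 without trained WT mouse 1, 2 or 3, and 254 without naive Stau2GT mouse 1. The interaction count of 6 was 4 to 10, with 10 without trained Stau2GT mouse 2. With the replicate number as a block 1394 clusters passed in Stau2GT brains. The numbers do not pair the samples, since the deviations of same-numbered Stau2GT arrays correlated by 0.0289 to 0.0623.

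Of 190 genes followed over all alternatives, a few that did not pass turned sign. With median centering *Cbln1* stood at -0.0267, *Nrxn2* at -0.0567 and *Rbfox3* at -0.0233. On leaving out 1 array *Cbln1* ran from -0.055 (without naive Stau2GT mouse 1) to 0.13, *Cbln3* from -0.0067 (without naive Stau2GT mouse 1) to 0.2933, *Nrxn2* from -0.01 (without naive Stau2GT mouse 3) to 0.045 and *Egr1* from -0.205 to 0 (without naive Stau2GT mouse 3). The cause of these changes was not tested. Scaling moved the median of all clusters by less than 0.1, to 0.0123 with quantile normalization and -0.0567 with median centering.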

Other observations

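Many clusters with a change had no gene name. Of the unnamed clusters kept, 426 were higher and 338 lower in trained against naive Stau2GT brains (8.17%), against 393 higher and 454 lower of those with 1 symbol (4.89%). Predicted genes made up 69 of the higher and 34 of the lower genes. Of the 751 genes called, 557 stood in none of the lists. *H2bc21*, a histone H2B gene outside the large histone clusters, stood at 5.74, 5.82 and 6.10 in trained and 6.39, 6.44 and 6.50 in naive Stau2GT brains (-0.56, adjusted p = 0.0239), and was the 1 of 21 histone genes that passed. It missed the threshold without naive Stau2GT mouse 1, 2 or 3 or trained Stau2GT mouse 1 or 2. *Dynlt3*, a light chain of the dynein motor, stood at 8.35, 8.20 and 8.25 in trained and 8.73, 8.69 and 8.71 in naive brains (-0.44, adjusted p = 0.00957).

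Of the other lists, 3 of 76 motor genes were higher (3.95%) and 1 lower (1.32%), 2 of 45 TRIM ubiquitin ligase genes were higher (4.44%) and 0 lower, and 4 of 79 ubiquitin and deubiquitinase genes were lower (5.06%) and 0 higher, against 1.94% of all genes higher and 2.63% lower. Without naive Stau2GT mouse 1, 2 or 3 or trained Stau2GT mouse 2 the 4 ubiquitin genes were 0 in each case, and the motor genes higher were 0, 0, 2 and 0. Of 22 interferon-stimulated genes 0 passed in limma.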
